A study of Mus musculus with 42 samples.

Results

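The response of 53bp1-deficient pre-B cells to a low dose of ionizing radiation was measured on 6 of the 42 arrays of the series, chosen by their labelled genotype. These were 3 cell lines of 53bp1-/- mice, each sampled 2 h after 1 Gy of gamma rays and after a mock treatment of the same length. The lines numbered 1, 2 and 3 in the labels came from bone marrow of mice aged 3 to 5 weeks, transformed with a pMSCV-v-abl retrovirus, whose oncogenic tyrosine kinase drives growth. The mice carried the Em-Bcl2 transgene, which supplies an anti-apoptotic protein, so irradiated and untreated cells alike lacked 53bp1, carried v-abl and were shielded from some forms of cell death. The lines used for comparison were H2ax-/-, Mdc1-/-, Scid (defective in DNA-PK, a kinase needed for joining ends), Mre11A/A (an altered nuclease of the Mre11 complex), Atm-/- and WT, with 3 lines of each, the same transgene, transformation, dose and time. The study asked which genes each genotype turned on or off after radiation and how that compared with WT and with the other mutants.

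53BP1 is a chromatin reader that gathers around DNA double-strand breaks, after ATM has marked them by phosphorylating the histone variant H2AX and MDC1 has bound the mark. With its partners RIF1 and the shieldin complex it keeps broken ends from being resected and so favours nonhomologous end joining, and it was first found as a protein that binds p53. ATM also starts 2 transcription programmes after a break: stabilised p53 turns on genes of cell-cycle arrest, death and repair, and NF-kB, released from its inhibitors, turns on survival and immune genes. Pre-B cells make and rejoin programmed breaks of their own at immunoglobulin genes through the RAG recombinase.

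The probe set with the highest signal for Trp53bp1, which encodes 53BP1, read 978 ± 221 in 53bp1-/- lines and 1480 ± 258 in WT lines (SD, n = 6 arrays each), and these ranges overlapped. A second one read 393 ± 84.2 in 53bp1-/- lines and 733 ± 112 in WT lines (SD, n = 6 arrays each), with no overlap. Another kept probe set was not lower, at 121 ± 15.4 in 53bp1-/- and 118 ± 34.1 in WT lines. A further one read 71.5 ± 27.1 in 53bp1-/- and 125 ± 43.5 in WT lines, with overlap. The rest had means below the array medians in both genotypes. Where these probe sets lie relative to the altered part of the gene was not analysed here, so they are a limited check of the labels. The lines had the markers of their labelled cell type: the summed signal of 13 pre-B cell genes was 94306 to 117181 in irradiated and 113584 to 131118 in untreated cells. Sums for T and NK, myeloid, erythroid and stromal markers stayed at or below 524 on all 6 arrays, and none of their tested genes was called. The array medians were 62.7 to 71.9, and signals below these carry little information. Of the 36 arrays used for comparison 2 stood apart, irradiated Atm-/- line 2 with a median of 115 and irradiated WT line 4 with 103, against 62.3 to 82.7 on the others.

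After radiation a small set of genes rose, among them some known p53 and NF-kB targets, and a smaller set fell slightly. Of 12363 genes tested, 240 (1.94%) were called at an adjusted p below 0.05 by limma with each line compared with itself, 188 of them higher (1.52%) and 52 lower (0.421%). All 240 moved the same way in the 3 lines, which 16.4% of all genes did upward and 17.3% downward, and 1155 genes (9.34%) had an unadjusted p below 0.05. The median change of the called genes was 0.77 on the log2 scale for those higher and -0.38 for those lower. The log2 change passed 1 in 62 of the genes called higher, and none of those called lower passed -1. Irradiated arrays lay wholly above untreated ones for 157 of the 188 genes called higher, against 4.94% of all genes, and wholly below for 26 of the 52 called lower, against 3.61% of all genes. Calls were made from these same values, so the counts of direction and overlap describe the called genes and are no separate support. The gene-wide changes of the lines were only loosely alike, with Pearson correlations across genes of 0.14 to 0.17 between lines, and genes are not independent points. Leaving out line 1, 2 or 3 left 133, 80 or 109 calls, and 58 of the 240 genes (56 higher, 2 lower) were called in all 3 of these smaller comparisons. Without pairing the arrays by line only 3 genes (0.0243%) were called, Relb, Mob3a and Sesn2, and 345 (2.79%) had an unadjusted p below 0.05.

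Known p53 targets were among the genes that rose. Of 50 measured targets on 4 lists (cell-cycle arrest and stress, p53 feedback, death, and repair), 24 were called higher and 0 lower, with a median log2 change of 0.58 against -0.01 for all genes. The share called higher among all genes was 1.52%. Without line 1, 2 or 3, 19, 17 or 18 of the 24 were still called.

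Arrest and stress genes had 10 of 16 members called and a median log2 change of 1.01. Cdkn1a, the cyclin-dependent kinase inhibitor p21 that halts the cycle, had signals of 6988, 10933 and 8693 in irradiated lines 1 to 3, against 1492, 1852 and 1560 in the same lines untreated. All irradiated values lay far above all untreated ones, and the change was 2.41 ± 0.18 (log2, SE; 5.32-fold; adjusted p = 2.18e-08). Its upstream promoter window was the only one among 21 p53 targets called higher to hold a full p53 consensus site, a pair of half-sites with a spacer of up to 13 bases; among all genes tested with a promoter, 4 of 9991 held one. The window of 250 bases before and 50 after an annotated start (RefSeq, GRCm38.p6, chr17:29090729-29091028, plus strand) is printed to show that element in capitals, and other windows were searched for the same site on both strands. Capitals mark the strict match only. The bases directly after it resemble a further half-site but break the consensus at their first base, so they stay in lower case. Which half-sites p53 binds was not tested.
Cdkn1a: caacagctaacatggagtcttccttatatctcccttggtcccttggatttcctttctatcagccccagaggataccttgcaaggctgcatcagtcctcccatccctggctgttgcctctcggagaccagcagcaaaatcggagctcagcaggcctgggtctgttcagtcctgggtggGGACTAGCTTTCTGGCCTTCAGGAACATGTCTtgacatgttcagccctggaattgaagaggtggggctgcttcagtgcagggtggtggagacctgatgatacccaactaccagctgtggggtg
Sesn2, a stress-induced inhibitor of growth signalling, had 1279, 1580 and 1141 in irradiated and 255, 209 and 355 in untreated lines, a change of 2.24 ± 0.29 (adjusted p = 5.28e-05). Slc19a2, a thiamine transporter, reached 3824, 4289 and 4554 in irradiated cells, against 801, 936 and 798 in untreated ones. Phlda3, which restrains AKT at the membrane, read 1139, 2117 and 1576 in irradiated lines and 308, 457 and 414 in untreated lines. None of these ranges overlapped, and these calls held whichever line was left out. Plk2, a polo-like kinase, had the largest log2 rise of the called genes, 2.84 ± 0.63, but its untreated signals of 12.9, 26.0 and 11.7 lay below the array medians and irradiated line 3 reached only 72.9, against 359 and 358 in irradiated lines 1 and 2. Its adjusted p of 0.0127 became 0.197 without line 1 and 0.153 without line 2. Gtse1, Ddit4 (an inhibitor of mTORC1), Zmat3, Btg2 and Trp53inp1 were also called, with log2 changes of 0.90 to 1.30; of these the call of Gtse1 alone held whichever line was left out.

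The p53 feedback list had 6 of 9 measured genes called higher. Of these, Trp53inp1 is also counted in the arrest list and Pmaip1 in the death list, so the counts of the lists overlap. Mdm2, the ubiquitin ligase that degrades p53, read 2191, 2475 and 3190 in irradiated lines and 1450, 1283 and 1033 in untreated lines. Its groups did not overlap, but its change of 1.05 ± 0.19 (adjusted p = 0.00248) was uneven between lines, at 0.59, 0.94 and 1.61, and without line 3 its adjusted p was 0.143. Ccng1, cyclin G1, was even across lines at 1.37, 1.32 and 1.38. Mdm4 and Ppm1d, a p53-binding homologue of Mdm2 and a phosphatase that switches the damage signal off, rose by 0.38 and 0.71, and neither was called once any line was left out.

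Death genes were called higher for 7 of 13 measured, in cells that carry the Bcl2 transgene. Bbc3, encoding the BH3-only protein PUMA that neutralises Bcl2 proteins, had 863, 1405 and 1448 in irradiated and 249, 337 and 469 in untreated lines (1.78 ± 0.21; adjusted p = 1.62e-05). Pmaip1, encoding the BH3-only protein NOXA, differed greatly between lines, with 335, 671 and 2472 in irradiated and 83.4, 171 and 897 in untreated cells. The groups overlapped because line 3 started high, yet the change within lines was similar, 1.82, 1.88 and 1.45. Fas, a death receptor, stood at 192, 284 and 193 in irradiated lines, against 61.2, 39.1 and 8.08 in untreated lines, the last values being near or below the array medians. Aen, Apaf1, Pidd1 and Ei24 rose by 0.80 to 1.22, and all 7 calls held whichever line was left out. Bcl2l11, encoding BIM, was not called: 9367, 8629 and 10435 in irradiated lines against 8383, 7032 and 5356 in untreated lines (0.47 ± 0.17; adjusted p = 0.248). In the Bcl2 family list 2 of 15 genes were called, and these were Bbc3 and Pmaip1.

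The repair list was called higher for 3 of 14 genes, all of them outside double-strand break joining. Polk, a translesion polymerase, had 2322, 2531 and 2554 in irradiated and 696, 768 and 667 in untreated lines, a change of 1.78 ± 0.23. Ddias, an anti-apoptotic factor induced by DNA damage, and Ercc5, a nuclease of nucleotide excision repair, rose by 1.97 and 1.52, and all 3 calls held whichever line was left out. Rev3l, the catalytic subunit of another translesion polymerase, was 0.21 higher and not called (adjusted p = 0.424).

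**Figure D1:**
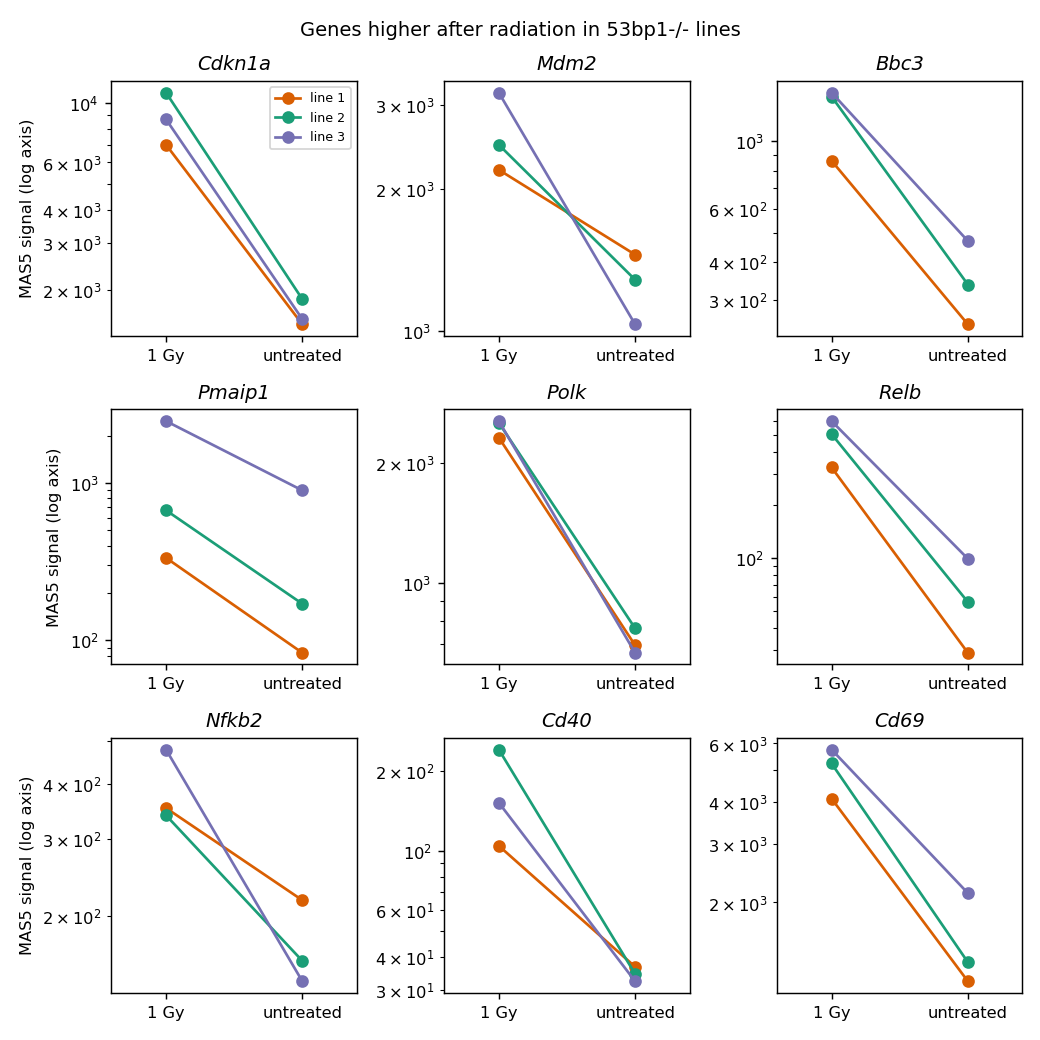
MAS5 signal (log axis, a separate range in each panel) of 9 genes in the 3 53bp1-/- lines 2 h after 1 Gy (left) and untreated (right), with a line joining the 2 arrays of a cell line. Every line rose in every panel; the groups did not overlap except for Pmaip1, whose line 3 had 2472 after radiation and 897 untreated.

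Some NF-kB genes were also called higher. Of 54 measured genes on 4 lists (subunits, inhibitors and feedback, surface and secreted proteins, survival and other genes), 19 were called higher and 0 lower, with a median log2 change of 0.47. Among all genes 1.52% were called higher, and the median log2 change was -0.01. Without line 1, 2 or 3, 15, 6 or 7 of the 19 were still called, and the 5 genes called in every such comparison were Relb, Bcl3, Nfkbie, Cd69 and Fas. The last is on both the p53 and the NF-kB lists.

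Relb, a subunit that pairs with the Nfkb2 product, read 325, 503 and 596 in irradiated lines and 28.8, 55.9 and 98.5 in untreated lines. Every irradiated value was more than any untreated one, and the change was 2.73 ± 0.42 (log2, SE; adjusted p = 0.000401). Nfkb2 read 352, 339 and 479 in irradiated and 217, 158 and 142 in untreated lines (1.11 ± 0.28; adjusted p = 0.0349), and its call was lost whichever line was left out (adjusted p = 0.0603, 0.185 and 0.489 without lines 1, 2 and 3). Another kept probe set of Nfkb2 changed by 2.63. Rela and Rel were 0.24 and 0.21 higher and not called (adjusted p = 0.46 and 0.86).

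Among inhibitors and feedback genes 7 of 17 were called. Bcl3, an atypical inhibitor that can also activate transcription, had 306, 833 and 413 in irradiated and 65.6, 208 and 102 in untreated lines, a change of 1.92 ± 0.32. Nfkbie, encoding the inhibitor IkB-epsilon, had 1453, 2149 and 2195 in irradiated and 561, 704 and 647 in untreated lines, a change of 1.56 ± 0.26. Nfkbia, encoding IkB-alpha, which is abundant in both groups, rose by 0.56 ± 0.10, with 7702, 8574 and 10184 in irradiated and 5724, 5461 and 6750 in untreated lines. In each of these 3 inhibitors irradiated and untreated arrays were apart; the call of Nfkbia was lost without line 2 (adjusted p = 0.0578). Tnfaip3 (the ubiquitin-editing enzyme A20), Birc3, Nfkbiz and Cyld (a deubiquitinase) rose by 0.94, 0.84, 0.70 and 0.36, each with a call that ended when 1 or more lines were left out.

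Of the surface and secreted list, 5 of 18 genes were called. Cd69, an early activation marker, read 4100, 5227 and 5754 in irradiated and 1160, 1323 and 2133 in untreated lines (1.73 ± 0.27; adjusted p = 0.000458). Cd40, a costimulatory receptor, had 105, 241 and 152 in irradiated and 36.7, 34.5 and 32.4 in untreated lines, and all 3 untreated signals lay below the array medians. Icam1, an adhesion molecule, and Ltb, lymphotoxin beta, rose by 1.07 and 0.95. The calls of Cd40, Icam1 and Ltb were lost without line 2 (adjusted p = 0.244, 0.103 and 0.313) and without line 3 (0.127, 0.111 and 0.0643). The survival list had 5 of 15 genes called (Ier3, Spib, Swap70, Pim2 and Irf4, with log2 changes of 0.47 to 1.77), of which 3 were called without line 1 and 0 without line 2 or line 3. In Ier3 line 2 stood out, with 285 in irradiated line 2 against 50.1 and 79.8 in irradiated lines 1 and 3.

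Promoter windows were searched on both strands for the decamer kB consensus. It was present in at least 1 window of 9 of the 15 called NF-kB genes that have one in the table (60%), of 617 of 9991 genes tested (6.18%) and of 20 of 165 genes called higher (12.1%). Lists of NF-kB genes were drawn from known targets, so this describes the list. A window of Nfkb2, which has 3 windows with matches, and that of Nfkbia are shown as those of a subunit and of an inhibitor that rose, with the matches in capitals: in Nfkb2 overlapping matches begin 39 bases before it and another 11 bases before it, and in Nfkbia a match begins 29 bases before it. The Nfkb2 window printed is chr19:46304487-46304786 (plus strand) and that of Nfkbia chr12:55492598-55492897 (minus strand; RefSeq, GRCm38.p6).
Nfkb2: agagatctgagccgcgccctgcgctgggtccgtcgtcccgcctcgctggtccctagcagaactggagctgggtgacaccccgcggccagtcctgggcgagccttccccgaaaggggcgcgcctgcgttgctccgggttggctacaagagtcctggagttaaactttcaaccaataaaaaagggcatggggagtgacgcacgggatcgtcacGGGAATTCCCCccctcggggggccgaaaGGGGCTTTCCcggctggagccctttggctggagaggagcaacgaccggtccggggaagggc
Nfkbia: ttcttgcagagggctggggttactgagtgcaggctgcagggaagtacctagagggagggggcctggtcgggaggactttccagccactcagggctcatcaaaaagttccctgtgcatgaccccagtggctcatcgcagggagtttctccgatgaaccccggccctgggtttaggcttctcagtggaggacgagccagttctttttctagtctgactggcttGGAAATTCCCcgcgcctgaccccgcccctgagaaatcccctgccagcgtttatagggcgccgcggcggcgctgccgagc

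**Figure D2:**
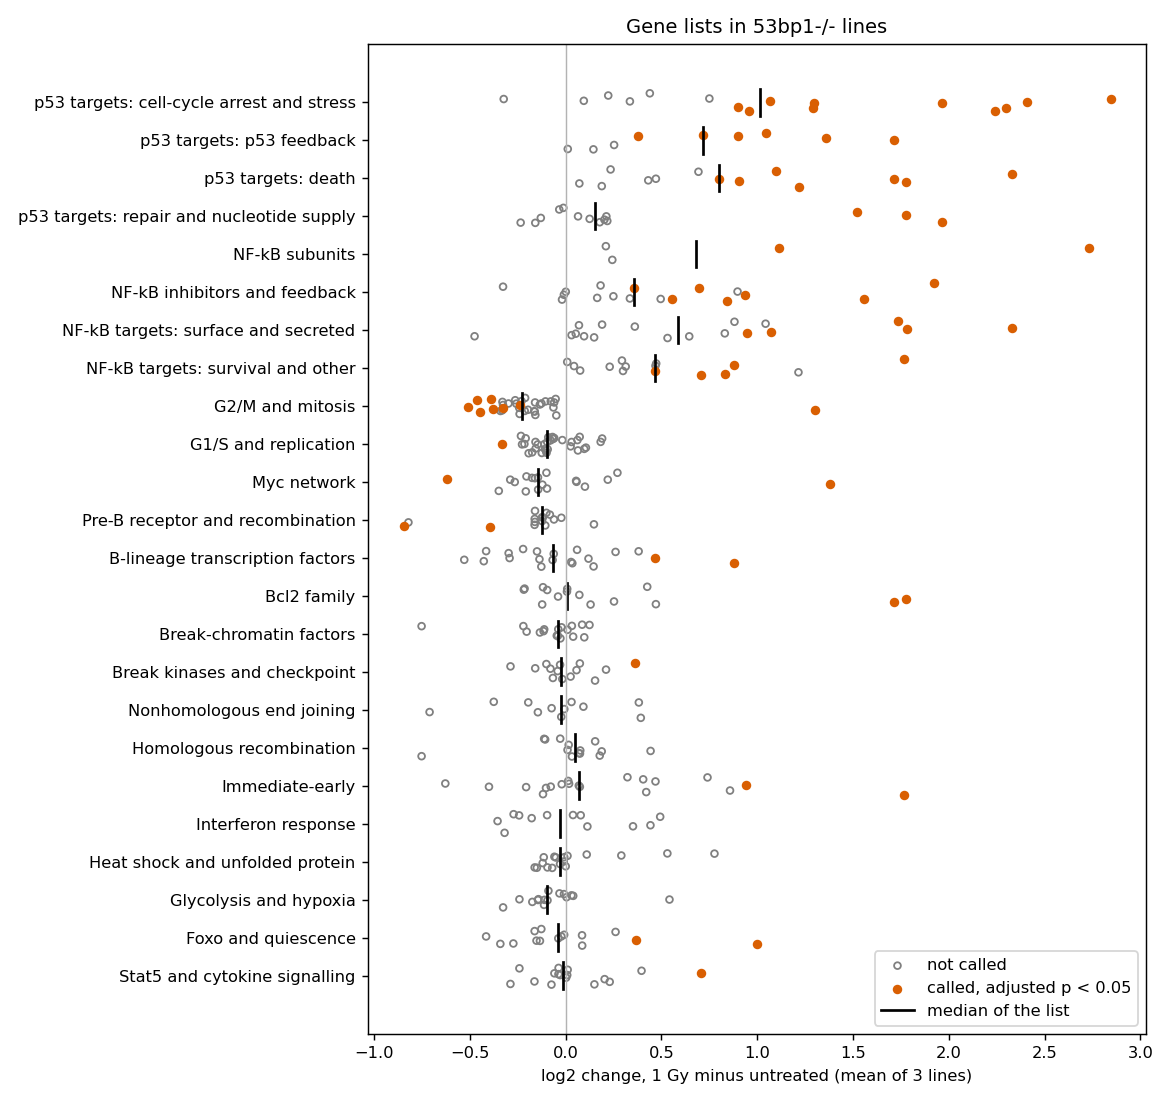
Log2 change (1 Gy minus untreated, mean of 3 lines) of each measured gene of 24 lists in 53bp1-/- lines, with called genes filled, others open and the list's median as a bar. The called genes of the 8 p53 and NF-kB lists lie to the right of 0, and those of the G2/M list lie to the left except Psrc1 at 1.30.

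Mitotic genes made up 7 of the 52: Plk1, Nek2, Cenpa, Cenpe, Cenpf, Tpx2 and Aspm were called lower among 33 measured G2/M genes, with a median for the list of -0.23, and 0.421% of all genes were called lower. Without line 1, 2 or 3, 6, 3 or 1 genes of the list were called lower. Plk1, the kinase that drives entry into and passage through mitosis, read 1759, 2090 and 1520 in irradiated and 2440, 2344 and 2833 in untreated lines. It fell by 0.51 ± 0.10 on the log2 scale (adjusted p = 0.00537), unevenly (-0.47, -0.16 and -0.89), and without line 3 its adjusted p was 0.305. Cenpf, a kinetochore protein, read 1822, 1931 and 1895 in irradiated and 2168, 2884 and 2721 in untreated lines, again without overlap (-0.45 ± 0.08; adjusted p = 0.00294), but it was not called without line 2 or 3 (0.103 and 0.07). Aspm, a spindle-pole protein, read 1320, 1641 and 1694 in irradiated and 1653, 2318 and 2534 in untreated lines. These ranges overlapped, yet each line fell (-0.32, -0.49 and -0.58), and this call held whichever line was left out. Psrc1, a spindle protein, went the other way in the same list (1.30 ± 0.19; adjusted p = 0.000272). Of 32 G1/S and replication genes only Cdc6, which loads the replicative helicase, was called lower (-0.33; adjusted p = 0.0335), and this call was lost whichever line was left out (adjusted p 0.0519 to 0.403).

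The cell-cycle genes homology region, CHR, is a short element (TTTGAA) near the start of many mitotic genes. It was looked for after the values were seen, on both strands, and was present in 4 of 6 G2/M genes called lower that have a window (66.7%), against 14.6% of genes tested and 17.9% of all windows. The list was drawn from mitotic genes, so this describes the list. The share among G2/M genes not called lower was not computed, so a link to the falls was not tested. The windows of Plk1 (chr7:122159185-122159484, plus strand) and Aspm (chr1:139454523-139454822, plus strand; RefSeq, GRCm38.p6) are shown with the element in capitals just past the start.
Plk1: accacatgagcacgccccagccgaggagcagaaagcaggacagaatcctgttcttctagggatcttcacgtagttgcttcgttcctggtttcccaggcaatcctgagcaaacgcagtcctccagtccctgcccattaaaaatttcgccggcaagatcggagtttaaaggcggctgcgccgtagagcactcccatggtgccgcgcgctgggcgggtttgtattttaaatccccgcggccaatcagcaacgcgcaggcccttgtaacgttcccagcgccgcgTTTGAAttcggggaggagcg
Aspm: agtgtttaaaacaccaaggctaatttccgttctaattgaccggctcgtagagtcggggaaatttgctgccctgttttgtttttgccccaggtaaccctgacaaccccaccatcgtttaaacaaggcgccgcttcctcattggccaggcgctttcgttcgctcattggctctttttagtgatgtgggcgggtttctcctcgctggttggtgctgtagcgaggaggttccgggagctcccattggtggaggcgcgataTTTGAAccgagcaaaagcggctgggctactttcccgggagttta

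The deepest fall of all called genes was that of Rag1, which cuts immunoglobulin genes for recombination: 1080, 256 and 369 in irradiated lines against 1541, 542 and 750 in untreated lines (-0.85 ± 0.18; adjusted p = 0.00958). The groups overlapped because line 1 had much more Rag1 than the others, but each line fell. The call was lost without line 2 (adjusted p = 0.165) and without line 3 (0.155). Rag2, its partner, read 717, 104 and 144 in irradiated and 848, 289 and 277 in untreated lines, a change of -0.82 ± 0.23 that was not called (adjusted p = 0.072). Of 16 pre-B receptor and recombination genes Rag1 and Blk, a Src-family kinase, were called lower and 0 higher (Blk -0.40; adjusted p = 0.00101, or 0.0603 without line 3), while Vpreb3 was -0.16 and not called. Myc, the growth regulator, read 4969, 3268 and 4344 in irradiated and 6723, 5142 and 7409 in untreated lines, with no overlap (-0.62 ± 0.12; adjusted p = 0.00279, or 0.0578 without line 2 and 0.0857 without line 3). Pvt1, the noncoding RNA gene beside Myc, moved the opposite way, with 1151, 1237 and 1473 in irradiated and 433, 440 and 589 in untreated lines (1.38 ± 0.16; adjusted p = 1.56e-05), and this call held whichever line was left out. Other named falls were those of Ifit1bl1, Tifa, H1f2, Depdc1b, Rgs14, Gpat3 and St8sia4, with log2 changes of -0.46 to -0.72; of these the call of St8sia4, a sialyltransferase, alone held whichever line was left out.

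**Figure D3:**
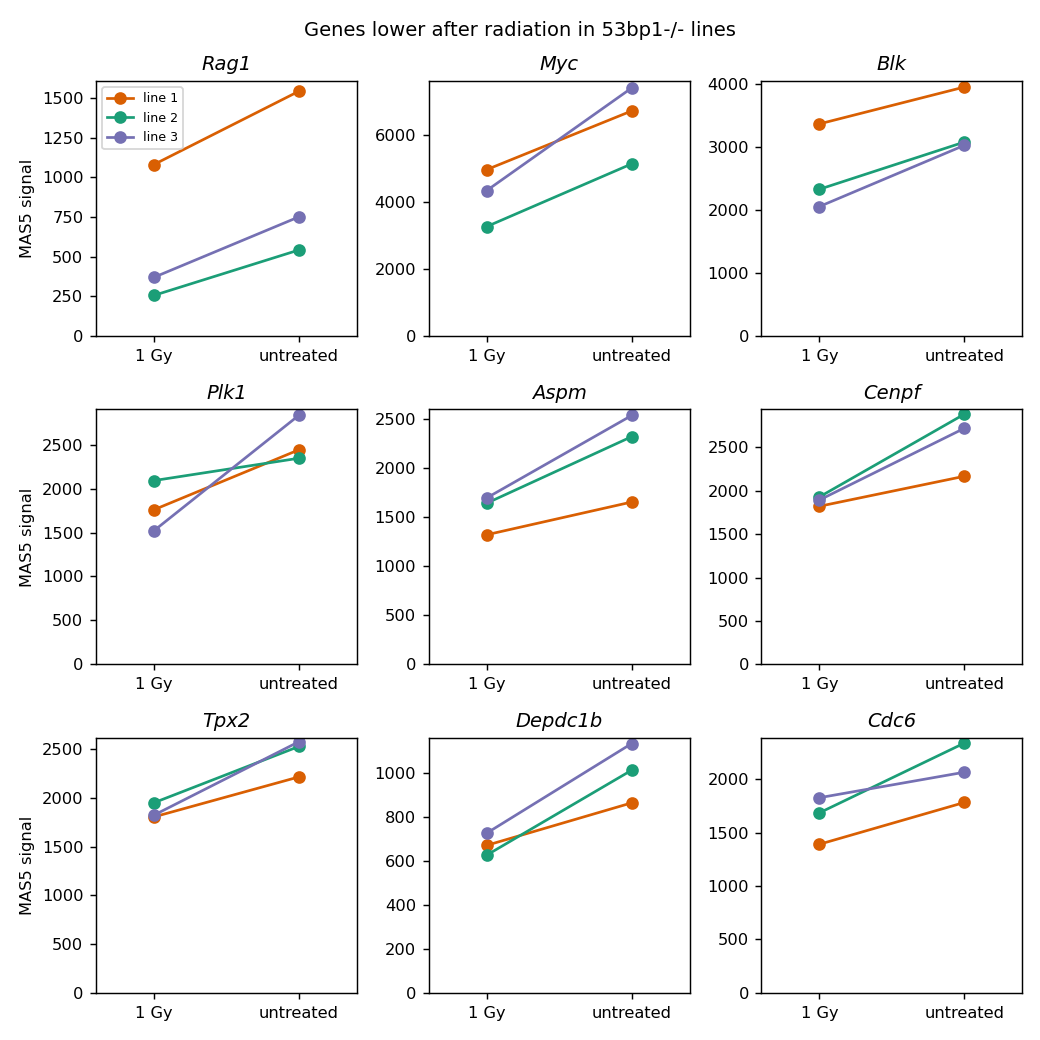
MAS5 signal (linear axes starting at 0) of 9 genes called lower in the 3 53bp1-/- lines, 2 h after 1 Gy (left) and untreated (right), with a line joining the 2 arrays of a cell line. Each line was lower after radiation in every panel, and in Rag1 the groups overlapped because line 1 had 1080 after radiation and 1541 untreated.

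The 3 lists of break repair genes gave no calls at 2 h. Of 17 measured break-chromatin factors, 11 nonhomologous end-joining and 14 homologous recombination genes, 0 were called by limma in either direction, and of these 1, 2 and 0 had an unadjusted p below 0.05. Among all genes 1.94% were called and 9.34% had an unadjusted p below 0.05. At that share of calls, lists of this size could hold none. H2ax had a log2 change of -0.22, Mdc1 of -0.05, Rnf168 (a ubiquitin ligase that builds the mark 53BP1 reads) of -0.11, and the 53BP1 effectors Rif1 and Mad2l2 of -0.03 and -0.04. A p that misses the threshold does not show that these levels were the same. Larger but uncalled values came from genes with low or uneven signals: Bard1 at -0.75 (28.6, 21.3 and 49.3 in irradiated lines against 58.7, 57.7 and 78.4 in untreated lines), and Polm at -0.71 (11.8, 101 and 351 in irradiated lines against 63.7, 150 and 379 in untreated lines). Lig4, the ligase of end joining, was at -0.37 and Rad51d at 0.44. Among 14 break kinases and checkpoint genes 1 was called, Chek2, with 935, 1052 and 868 in irradiated and 734, 750 and 716 in untreated lines (0.36 ± 0.09; adjusted p = 0.0372, or 0.128 to 0.388 without 1 line). Rnf169, a reader of the same ubiquitin mark that competes with 53BP1 at breaks, was outside the lists and was chosen after its values were seen. It had 2059, 2451 and 2325 in irradiated and 814, 976 and 982 in untreated lines, with no overlap (1.29 ± 0.18; adjusted p = 0.000138, and called whichever line was left out).

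Calls in other lists are given beside those of all genes, of which 1.52% were called higher, 0.421% lower and 1.94% either way. Of 12 interferon, 17 heat shock and unfolded protein and 15 glycolysis genes 0 were called by limma, with 1, 2 and 2 at an unadjusted p below 0.05. That p was reached by 9.34% of all genes, and lists of this size could hold no call at the share of all genes. Hspa1b, an inducible heat shock protein, was 0.50, 1.68 and 0.15 higher in lines 1 to 3, so line 2 alone made most of its mean of 0.78 (adjusted p = 0.384). Gbp2, an interferon-induced GTPase, had a log2 change of 0.35 (adjusted p = 0.317). Of 15 Foxo and quiescence genes, Foxo3 (a stress-responsive transcription factor) and Btg1 were called higher, by 1.00 and 0.37; the call of Btg1 was lost without line 2 (adjusted p = 0.301) and line 3 (0.076). Foxo3 had 1516, 2365 and 1097 in irradiated and 696, 1023 and 669 in untreated lines and was called whichever line was left out. Of 20 B-lineage transcription factors 2 were called higher, Spib and Irf4, which are also on an NF-kB list; Ikzf1, encoding Ikaros, was -0.30 and not called (adjusted p = 0.0937). Of 19 immediate-early genes Ier5 (0.94 ± 0.13) and Ier3 were called. From the marker list of mature B and plasma cells Sdc1, encoding syndecan-1, was called higher (1.11 ± 0.14; adjusted p = 5.74e-05) and Cd22 lower (-0.33 ± 0.07; adjusted p = 0.0151, lost without line 1 at 0.0902 and without line 3 at 0.344), while the summed signal of that list was 3553 to 3965 in irradiated and 3793 to 4230 in untreated cells.

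Several of the largest rises belonged to no list. The RNA gene 9230114K14Rik had 1517, 2793 and 2241 in irradiated and 256, 383 and 257 in untreated lines (2.79 ± 0.31). Enc1, an actin-binding kelch protein, had 1396, 1538 and 1750 in irradiated and 315, 206 and 244 in untreated lines (2.55 ± 0.32), and Inka2, an inhibitor of a p21-activated kinase, rose by 2.29 ± 0.39, with untreated signals of 31.5, 52.6 and 32.9 that lay below the array medians. These 3 calls held whichever line was left out. Nup210l and Dennd2c rose by 2.16 and 2.07, also with untreated signals below the array medians (5.53, 8.93 and 38.2 for Nup210l; 44.8, 6.30 and 1.53 for Dennd2c), and both of these calls were lost whichever line was left out. Of the 188 genes called higher, 9 had untreated signals below the lowest array median in all 3 lines.

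The response was set against that of the other genotypes, whose log2 changes come from their own irradiated and untreated arrays. Calls of all genotypes came from the same model, with a common variance for each gene. A gene with a small variance is thus more easily called in every genotype, so counts of shared calls are not independent support. Genes called higher in 53bp1-/- lines had median log2 changes of 0.54 in H2ax-/-, 0.91 in Mdc1-/-, 0.67 in Scid, 0.33 in Mre11A/A, 0.07 in Atm-/- and 0.65 in WT lines, where the medians of all genes lay between -0.02 and 0.03. Of the 188, 187 were above 0 in H2ax-/- lines, 187 in Mdc1-/-, 184 in Scid, 179 in Mre11A/A, 123 in Atm-/- and 184 in WT lines. Above 0 among all 12363 genes were 5944 in H2ax-/-, 6033 in Mdc1-/- and 5817 in Scid lines. In Mre11A/A lines they were 5469, in Atm-/- lines 6973 and in WT lines 6326. Genes called lower had medians of -0.36 in H2ax-/-, -0.44 in Mdc1-/-, -0.30 in Scid, -0.10 in Mre11A/A, -0.06 in Atm-/- and -0.32 in WT lines. Calls shared with Mdc1-/- lines were 172 of the 188 higher (91.5%, and 43.7% of the Mdc1-/- list) and with H2ax-/- lines 86 (45.7%, and 66.2% of the H2ax-/- list). With Scid lines 132 were shared (70.2%, and 62.0% of the Scid list), and with WT lines 128 (68.1%, and 51.8% of the WT list). Of all genes 3.19% were called higher in Mdc1-/-, 1.05% in H2ax-/-, 1.72% in Scid, 0.518% in Atm-/- and 2% in WT lines. With Atm-/- lines 1 gene was shared, Bbc3, at 0.89 in Atm-/- lines. Mre11A/A lines had only 4 genes called, all higher, and 3 of these were shared.

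Against WT lines no difference in response was called: 0 of 12363 genes by limma (0%), with 651 genes (5.27%) at an unadjusted p below 0.05, where 618 would be at a share of 0.05. Without WT line 4, whose irradiated array had the high median, 0 were called too, with 855 at an unadjusted p below 0.05. This does not show that the responses were alike, and the intervals of single genes were wide. For Cdkn1a the response was 0.65 more in 53bp1-/- than in WT lines (2.41 in 53bp1-/-, 1.76 in WT; 95% interval 0.12 to 1.17; adjusted p = 0.94). Relb differed by -0.18 (interval -1.41 to 1.05), a sign that turned to 0.20 without WT line 3, and Rag1 by 0.30 (interval -0.22 to 0.83). The genes with the smallest p were Dctn6 (a dynactin subunit; 0.19 in 53bp1-/- and -0.39 in WT lines), Zfp652os (-1.10 in 53bp1-/- and 1.24 in WT lines, at low signal) and H2-Ab1 (an MHC class II chain; -0.12 in 53bp1-/- and 0.78 in WT lines), none of them called (adjusted p = 0.94 each). Against the mean of H2ax-/- and Mdc1-/- lines, the other proteins of break chromatin, 0 genes were called by limma (0%) and 440 (3.56%) had an unadjusted p below 0.05. Cdkn1a differed there by 0.31 (interval -0.14 to 0.77), Relb by -0.66 (interval -1.72 to 0.40) and Cd69 by -0.72 (interval -1.40 to -0.03; adjusted p = 1). The smallest p were those of Fcsk (0.98), Plxnd1 (-1.24) and H2ax (-0.59), none called, the last being the gene altered in H2ax-/- lines.

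**Figure D4:**
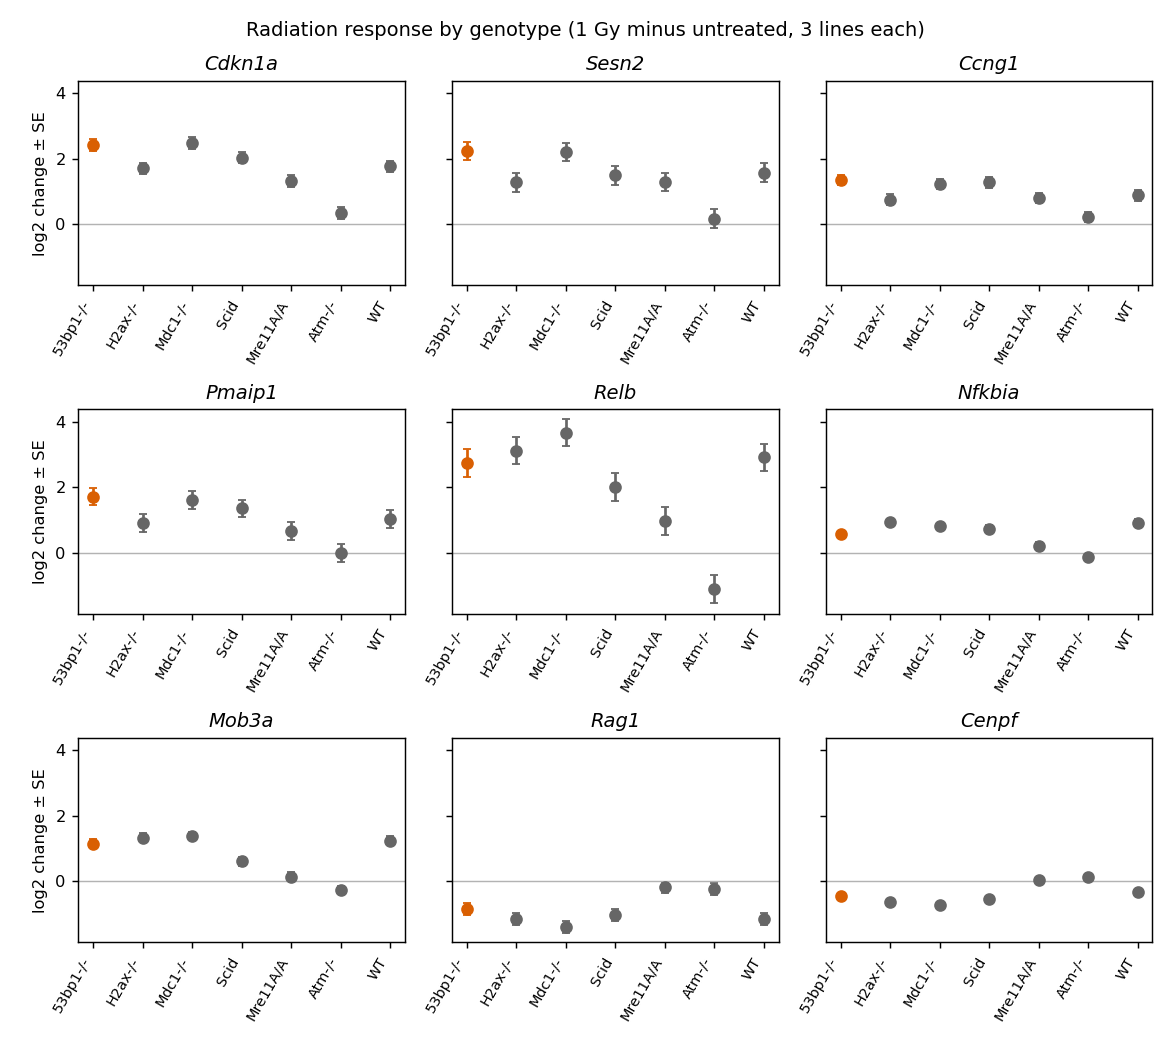
Log2 change after 1 Gy (mean of 3 lines, bars are SE from the paired limma model) of 9 genes in 7 genotypes, with 53bp1-/- at the left and WT at the right. In Cdkn1a the 53bp1-/- lines stand at 2.41, the Atm-/- lines at 0.33 and the WT lines at 1.76.

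Against Atm-/- lines the responses differed for 86 genes (0.696%), higher in 53bp1-/- lines for 66 (0.534%) and lower for 20 (0.162%). Of the 66, 50 were also called higher in the 53bp1-/- response, and of the 20, 5 were also called lower. In the Atm-/- response 11 of the 66 were called lower and 8 of the 20 higher. Among all 12363 genes 64 were called higher and 100 lower in Atm-/- lines. The differences were made from these same arrays, so such counts describe them and are no separate support. Leaving out 53bp1-/- line 1 left 12 genes higher and 4 lower, and leaving out line 2 or line 3 left 6 higher and 0 lower. Leaving out Atm-/- line 2, whose irradiated array had the high median, left 41 (27 higher, 14 lower), and the unpaired model left 2 (0.0162%). Of the p53 targets 16 of 50 differed, all higher in 53bp1-/- lines, and the list's median response was 0.58 in 53bp1-/- and 0.07 in Atm-/- lines. Of the NF-kB genes 5 of 54 differed (Relb, Nfkbia, Birc3, Ltb and Junb), also higher in 53bp1-/- lines, with a median response of 0.47 in 53bp1-/- and -0.01 in Atm-/- lines.

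Among the genes with the smallest p, Cdkn1a changed by 2.41 in 53bp1-/- and 0.33 in Atm-/- lines, a difference of 2.08 ± 0.25 (SE; adjusted p = 0.00032). Mob3a, a member of the MOB family, changed by 1.15 in 53bp1-/- and -0.27 in Atm-/- lines (difference 1.42 ± 0.18, adjusted p = 0.000365). In 53bp1-/- lines Mob3a had 1042, 998 and 947 after radiation and 520, 372 and 442 untreated. Relb had the largest difference of the named genes, 3.85 ± 0.59 (2.73 in 53bp1-/- and -1.11 in Atm-/- lines; adjusted p = 0.00374). Pvt1 (1.38 in 53bp1-/- and -0.20 in Atm-/- lines), Slc19a2 (2.30 in 53bp1-/- and 0.25 in Atm-/- lines) and 9230114K14Rik (2.79 in 53bp1-/- and 0.15 in Atm-/- lines) followed. Of these 6 calls those of 9230114K14Rik (adjusted p = 0.0539 and 0.0568 without 53bp1-/- lines 2 and 3) and Slc19a2 (0.0568 without line 3) were lost when a line was left out. Differences in the other direction were smaller in the 4 genes that follow, and each of their calls was lost without 53bp1-/- line 2 (adjusted p 0.0547 to 0.169) and without line 3 (0.0712 to 0.109). Pik3ip1, an inhibitor of PI3 kinase, changed by -0.34 in 53bp1-/- and 0.44 in Atm-/- lines, and Cenpc1, a centromere protein, by -0.08 in 53bp1-/- and 0.51 in Atm-/- lines. Mef2d, a transcription factor, changed by -0.36 in 53bp1-/- and 0.30 in Atm-/- lines, and Cenpf by -0.45 in 53bp1-/- and 0.13 in Atm-/- lines. In bulk RNA of a culture, fewer cells in a phase of the cycle and less RNA per cell cannot be told apart.

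**Figure D5:**
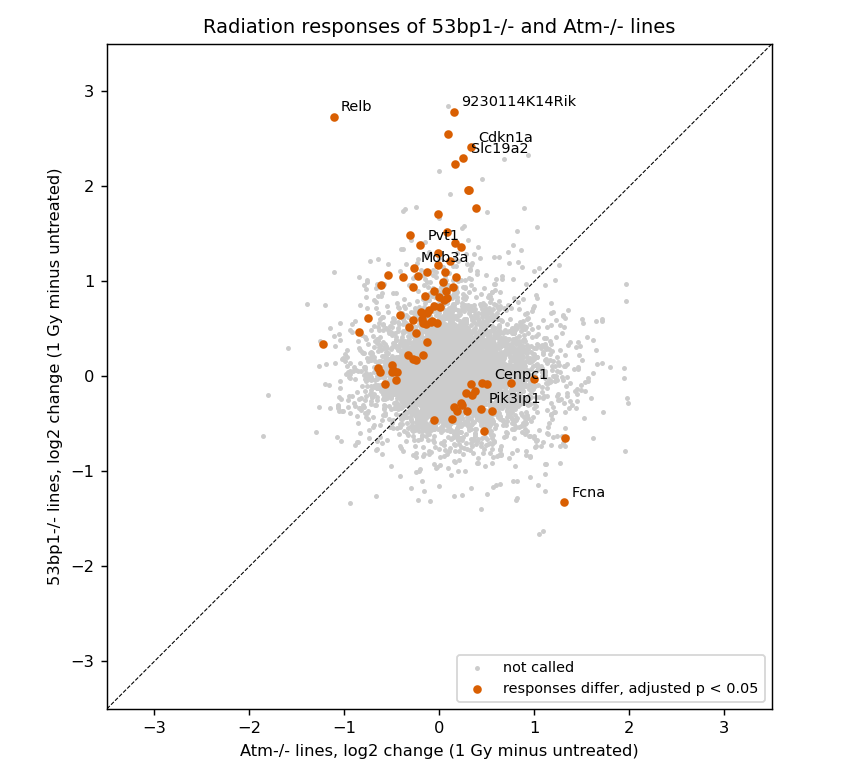
Log2 change after 1 Gy of each gene tested in 53bp1-/- lines (vertical) against Atm-/- lines (horizontal), with the dashed line marking equal change and the 86 genes whose responses differed at an adjusted p below 0.05 filled. Most of these lie above the line near 0 on the horizontal axis, with Relb at 2.73 in 53bp1-/- and -1.11 in Atm-/- lines.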

How the data were processed

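Total RNA of 21 pre-B cell lines was hybridised to 42 Affymetrix arrays after one-cycle biotin labelling, per the labels' protocols. The authors deposited 1 linear intensity per probe set and array, made by MAS5, per the submitters' processing notes. On every array the mean was 500 once 2% was trimmed from either end, so only relative levels can be compared. The authors' further steps are not given in the sources used here.

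Of 45101 probe sets on the array, 64 were controls. The platform annotation gave 34945 of the rest a single symbol, several symbols to 932, and none to 9160. A probe set stayed if it exceeded its array's median on 3 or more arrays (28260 kept, 23245 with 1 symbol), and the one with the highest mean of log2(signal + 16) stood for its gene, giving 12363 genes. Tests used log2(signal + 16), which understates changes at low signal.

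Limma 3.58.1 in R 4.3.3 (files read with data.table, version 1.17.8) fitted all 42 arrays with the line as a block and a radiation effect for each of 7 genotypes (14 residual degrees of freedom), with moderated variances following intensity. Two-sided p-values were adjusted over 12363 genes by the Benjamini-Hochberg method, with a threshold of 0.05. The replicate numbers of the labels were taken as lines: deviations from group means correlated at 0.50 to 0.64 between the 3 pairs of 53bp1-/- arrays with the same number, at 0.35 or more in all 21 pairs, and at most at -0.05 between different numbers. Deviations from a group mean cancel out within the group, so the negative values are partly forced and are no separate support for the pairing. Differences between responses were contrasts of the same model. The labels do not say whether lines of a genotype came from separate mice, so p-values speak only for these lines. They rest on how much the radiation change varied from line to line, pooled over the 7 genotypes, and not on differences in level between lines. With 3 lines a genotype the precision is limited.

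The members, gene lists, tests and the rule for naming genes were chosen with earlier results of these data known. Genes were named if among the 15 largest rises or 10 largest falls called the same way in all 3 lines, among up to 4 genes of each list with the smallest p, among up to 6 each way per difference (or the 3 with the smallest p where none was called), if break-chromatin factors, or if a called p53 or NF-kB gene had a promoter match; other called members of lists are named to complete counts of the lists. The script was tested on simulated data. Alternatives were no pairing, other pseudocounts (1 and 64), filters and scalings, no variance trend, the mean of the kept probe sets, 53bp1-/- arrays alone, and leaving out each line. Promoter windows came from RefSeq (GRCm38.p6); plots used matplotlib 3.10.9, numpy 2.4.6 and pandas 2.3.3 under Python 3.11.15.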

Additional observations from a re-analysis of the deposited data

Results flagged for a closer look

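The 53bp1-/- and Atm-/- responses differed by the test of the difference itself for 86 genes. Of the genes named there, the 53bp1-/- response minus the Atm-/- response was 3.85 for Relb, 2.64 for 9230114K14Rik, 2.08 for Cdkn1a, 2.05 for Slc19a2, 1.58 for Pvt1 and 1.42 for Mob3a on the log2 scale. In the other direction it was -0.78 for Pik3ip1, -0.66 for Mef2d, -0.59 for Cenpc1, -0.58 for Cenpf and -0.48 for D16Ertd472e. For Fcna it was -2.64, with signals in 53bp1-/- lines of 3.41, 8.49 and 12.6 after radiation and 37.9, 47.5 and 46.1 untreated, all below the array medians. The change of Fcna in 53bp1-/- lines alone was -1.32 and was not called (adjusted p = 0.087 by limma). The differences of D16Ertd472e and Fcna were not called once any 53bp1-/- line was left out (adjusted p 0.0729 to 0.14 by limma). That of Fcna was also lost without Atm-/- line 2 (0.0617).

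Probe sets with no gene symbol in the annotation took no part in the comparisons above. Of 4369 kept unnamed probe sets, 31 (0.71%) were called after radiation in 53bp1-/- lines, 26 higher and 5 lower. The largest rise among them had signals of 1284, 1512 and 984 in irradiated and 310, 255 and 178 in untreated lines (2.29 ± 0.23 on the log2 scale; adjusted p = 4.53e-06 by limma). Among kept probe sets with 1 symbol 1.25% were called.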

How the results depend on the processing

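The number of genes called in the 53bp1-/- response was 240. It was 3 without the replicate block, 131 without a variance trend, and 80 to 133 when 1 of the 53bp1-/- lines was left out; under the other alternatives it stayed within 1.5 times of 240. The difference from Atm-/- lines gave 86 genes, 2 without the replicate block, 4 without a variance trend, 54 with the mean of the kept probe sets (87.0% of them higher, against 76.7%), and 6 to 89 when 1 line of either genotype was left out (6, 6 and 16 without a 53bp1-/- line, 41 without Atm-/- line 2). The difference from WT lines gave 0 genes, or 1 without a variance trend; the difference from H2ax-/- and Mdc1-/- lines gave 0 under every alternative run. Of the 77 genes named in the text and called in the response, 3 were still called without the replicate block, 45 without a variance trend, 62 with the mean of the kept probe sets, 70 to 77 under the other pseudocounts and scalings and without a filter, and 38 to 55 when 1 line was left out, and 0 of them changed sign. Signs turned only for values that were not called: leaving out 1 line gave -0.31 to 0.058 for Trp53bp1, -0.15 to 0.064 for Mdc1, -0.18 to 0.073 for Rif1, -0.14 to 0.027 for Mad2l2, and -0.57 to 0.20 for the Relb difference from WT. Of the 240 genes, 129 had another kept probe set, of opposite sign in 11.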

Other observations

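Probe sets of 1 gene could differ in size of response. The probe set used for Nfkb2 changed by 1.11 on the log2 scale, while another kept probe set of the gene changed by 2.63; those of Pvt1 ranged between 0.79 and 1.80 beside the 1.38 used. For Cdkn1a the second kept probe set gave 2.33 beside 2.41, and for Slc19a2 the others gave 2.25 and 2.50 beside 2.30.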
